A study of Mus musculus with 8 samples.

Results

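Acute-phase and epithelial defence genes were followed in the lungs of mouse fetuses with and without tracheal occlusion (TO). The group holds 10 of the 55385 genes in the deposited count tables, and each was found there by its symbol. Lcn2, Lrg1, Reg3g and Saa3 were picked from these data because they were higher in TO lungs, so their difference is described and not tested. Pigr, Ltf, Cp, Lbp, Socs3 and Stat3 were added because their regulation is shared with the first 4, and all 10 had enough reads to enter the fit across all genes.

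The lungs were from C57BL/6 fetuses at E18.5, and the libraries were made from RNA of whole lung. In TO fetuses the trachea, together with a carotid artery and a jugular vein, was tied off by a suture passed through the uterine wall at E16.5, and dams were given progesterone to keep the pregnancy. Occlusion keeps the fluid that the fetal lung secretes inside the airways, and the question was which transcripts differ in the occluded lung. The controls carry only the label of control, and whether they were operated on or came from the same litters as the TO lungs is not given in the sources used here, so p-values measure the spread between these lungs, which may be partly technical. The series holds 4 control and 4 TO lungs, called control 1 to 4 and TO 1 to 4 here.

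Acute-phase proteins are secreted proteins whose synthesis climbs in inflammation and tissue injury. Cytokines of the IL-6 family signal through the shared receptor chain Il6st to Jak kinases, which activate the transcription factor Stat3, and Socs3 is a Stat3 target that inhibits the same receptors. NF-kB and the C/EBP factors act beside Stat3 on many of these genes. In the lung, airway and alveolar epithelium, macrophages and neutrophils are known sources: lipocalin 2 and lactoferrin are made by epithelium and are also stored in neutrophil granules.

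Control 3 and TO 1 were not among the 6 lungs shown in the study's figure of this experiment, so fold changes are given for controls 1, 2 and 4 against TO 2, 3 and 4 unless stated otherwise, with all lungs beside them. TO 1 held 270078 read pairs on genes against 22822261 to 35002061 in the other libraries, and 1 read pair there is worth 3.44 CPM, the level of a gene relative to library size as edgeR computes it after TMM scaling. The limit that a count of 0 allows, 3 read pairs, was 10.3 CPM in TO 1 and 0.0851 to 0.131 CPM elsewhere. All 10 fetal lung epithelium markers were detected in each of the 6 lungs. Over all 21859 genes tested the median log2 fold change was -0.0045 and 49.3% were higher in TO. edgeR's quasi-likelihood test with Benjamini-Hochberg adjustment called 0 genes (0%) at an adjusted p under 0.1, with 1123 genes at an unadjusted p under 0.05, limma-voom called 0 and DESeq2 called 44.

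The fitted level of all 10 genes was higher in TO lungs, and their log2 fold changes had a median of 1.48. The median was 2.63 for the 4 picked genes and 0.69 for the other 6. At an unadjusted p under 0.05 and higher in TO were 8 of the 10, against 3.07% of all genes tested (2.07% were lower at that p), and DESeq2 called 5 of the 10 at an adjusted p under 0.1, against 0.183% of all genes called higher. In both counts 4 are the genes that were picked on this contrast, so nothing is read from them. Of the other 6, 4 had an unadjusted p under 0.05, namely Pigr, Ltf, Cp and Stat3, edgeR called 0 at an adjusted p under 0.1 and DESeq2 called 1, Cp. Pigr had the reads that the filter asks for in TO 2, 3 and 4 but, of controls 1, 2 and 4, in control 2 alone. Nothing is therefore read from its place in that count. In simulated data DESeq2 called more unchanged genes than edgeR did. In whole lung RNA, a change in the number of cells that make a transcript and a change in transcript per cell cannot be told apart.

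The sequences upstream of the 4 picked genes, Ltf and Socs3 are shown because motifs of the 3 named factor families were searched in them. They are RefSeq sequences on GRCm38.p6, bases 250 to 61 before the RefSeq transcription start, 5′ to 3′ on the strand of the gene, with motif matches in capitals. The Lcn2 and Socs3 stretches lie within the wider gene bounds of GENCODE M21, which lists transcripts of both that start upstream. RefSeq windows were at hand for 9 of the 10 genes.
Lcn2, chr2:32387800-32387989, minus strand: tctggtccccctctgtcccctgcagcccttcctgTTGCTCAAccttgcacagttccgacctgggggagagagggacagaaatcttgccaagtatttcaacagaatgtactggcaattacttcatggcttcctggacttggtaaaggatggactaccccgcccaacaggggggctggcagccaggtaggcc
Lrg1, chr17:56122007-56122196, minus strand: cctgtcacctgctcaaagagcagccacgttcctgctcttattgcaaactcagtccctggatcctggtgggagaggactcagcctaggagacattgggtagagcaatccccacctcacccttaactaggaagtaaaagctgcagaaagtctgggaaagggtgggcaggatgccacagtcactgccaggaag
Reg3g, chr6:78468935-78469124, minus strand: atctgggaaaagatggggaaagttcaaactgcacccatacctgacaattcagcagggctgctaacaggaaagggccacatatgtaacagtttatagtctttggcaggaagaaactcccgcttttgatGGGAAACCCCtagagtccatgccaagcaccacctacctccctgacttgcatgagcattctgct
Saa3, chr7:46715737-46715926, minus strand: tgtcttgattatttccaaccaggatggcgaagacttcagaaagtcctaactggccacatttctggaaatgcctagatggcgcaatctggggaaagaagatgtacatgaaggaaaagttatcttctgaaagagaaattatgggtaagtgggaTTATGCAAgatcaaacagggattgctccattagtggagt
Ltf, chr9:111019042-111019231, plus strand: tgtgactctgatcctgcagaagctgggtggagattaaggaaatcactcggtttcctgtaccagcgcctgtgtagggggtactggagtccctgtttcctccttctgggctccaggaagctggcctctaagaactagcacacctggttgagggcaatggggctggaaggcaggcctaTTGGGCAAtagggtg
Socs3, chr11:117969427-117969616, minus strand: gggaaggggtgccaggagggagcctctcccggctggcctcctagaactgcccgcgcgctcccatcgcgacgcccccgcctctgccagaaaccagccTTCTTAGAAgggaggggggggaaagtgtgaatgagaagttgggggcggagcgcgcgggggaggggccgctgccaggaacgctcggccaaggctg

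Matches were sought on both strands over all 250 bases before the start. The C/EBP motif TTGCNNAA was found upstream of Lcn2, Saa3, Ltf and Cp, and 9.56% of 32851 RefSeq promoters of the same length hold it. The STAT motif TTCNNNGAA, held by 7.02%, was found upstream of Socs3 alone among the 9, and the NF-kB motif, held by 7.25%, upstream of Reg3g alone. The matches lie -216 to -209 relative to the start in Lcn2, -99 to -92 in Saa3, -75 to -68 in Ltf, -70 to -63 in Cp, -123 to -114 in Reg3g and -154 to -146 in Socs3. They do not overlap one another within a window. The Lrg1, Pigr and Stat3 windows hold no match to these 3 motifs. A match is a stretch of letters and no measured site.

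Lcn2 (chr2:32384633-32388252, minus strand, GRCm38) encodes lipocalin 2, which binds bacterial siderophores and so withholds iron. Its level was 8.72, 8.09, 11.02 and 6.78 CPM in controls 1 to 4 and 10.3, 23.0, 39.6 and 21.9 CPM in TO 1 to 4. TO 2, 3 and 4 lay above every control, and TO 1, with 3 read pairs, lay among the controls. The mean of the 6 lungs was 7.86 ± 0.987 CPM in control and 28.1 ± 9.94 CPM in TO (SD, n = 3 each), a ratio of 3.58. The log2 fold change was 1.83 ± 0.25 (SE of the fit), and 1.59 with all 8 lungs.

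Lrg1 (chr17:56119678-56122001, minus strand) encodes leucine-rich alpha-2-glycoprotein 1, a secreted protein known from liver and neutrophils that also acts on blood vessels. It was low in controls, at 0.788, 0.682, 1.48 and 0.444 CPM in controls 1 to 4. In TO 1 to 4 it was 6.89, 3.65, 6.98 and 4.54 CPM, the first from 2 read pairs. Each TO lung was above each control lung, TO 1 included. The means of the 6 lungs were 0.638 ± 0.176 and 5.05 ± 1.72 CPM (SD, n = 3 each), a log2 fold change of 2.97 ± 0.42, and of 2.60 with all 8 lungs.

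Reg3g (chr6:78466269-78468872, minus strand) encodes a secreted lectin that binds and kills Gram-positive bacteria at mucosal surfaces. Controls 1, 2 and 4 were at 10.6, 8.61 and 11.5 CPM and TO 2, 3 and 4 at 35.9, 89.3 and 25.0 CPM. Control 3 was at 53.0 CPM, above TO 2 and TO 4, so the groups overlapped once it was included. TO 1 was at 24.1 CPM from 7 read pairs. TO exceeded control by 2.28 ± 0.42 on the log2 scale in the 6 lungs by 1.59 without TO 3 and by 1.15 ± 0.60 in all 8.

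Saa3 (chr7:46711998-46715700, minus strand) is the serum amyloid A gene expressed outside the liver, in macrophages and epithelium. It was at 0.307, 0.650 and 0.404 CPM in controls 1, 2 and 4 and at 1.22, 12.3 and 1.82 CPM in TO 2, 3 and 4. Control 3 was at 6.15 CPM, higher than TO 2 and TO 4, and TO 1 had 0 read pairs, which allows up to 10.3 CPM. The log2 fold change of 3.45 ± 0.89 in the 6 lungs was 1.74 without TO 3 and 1.32 ± 1.02 with all 8 lungs. Of the picked genes, Lcn2 and Lrg1 thus kept TO 2, 3 and 4 above all 4 controls, and Reg3g and Saa3 did not.

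**Figure D1:**
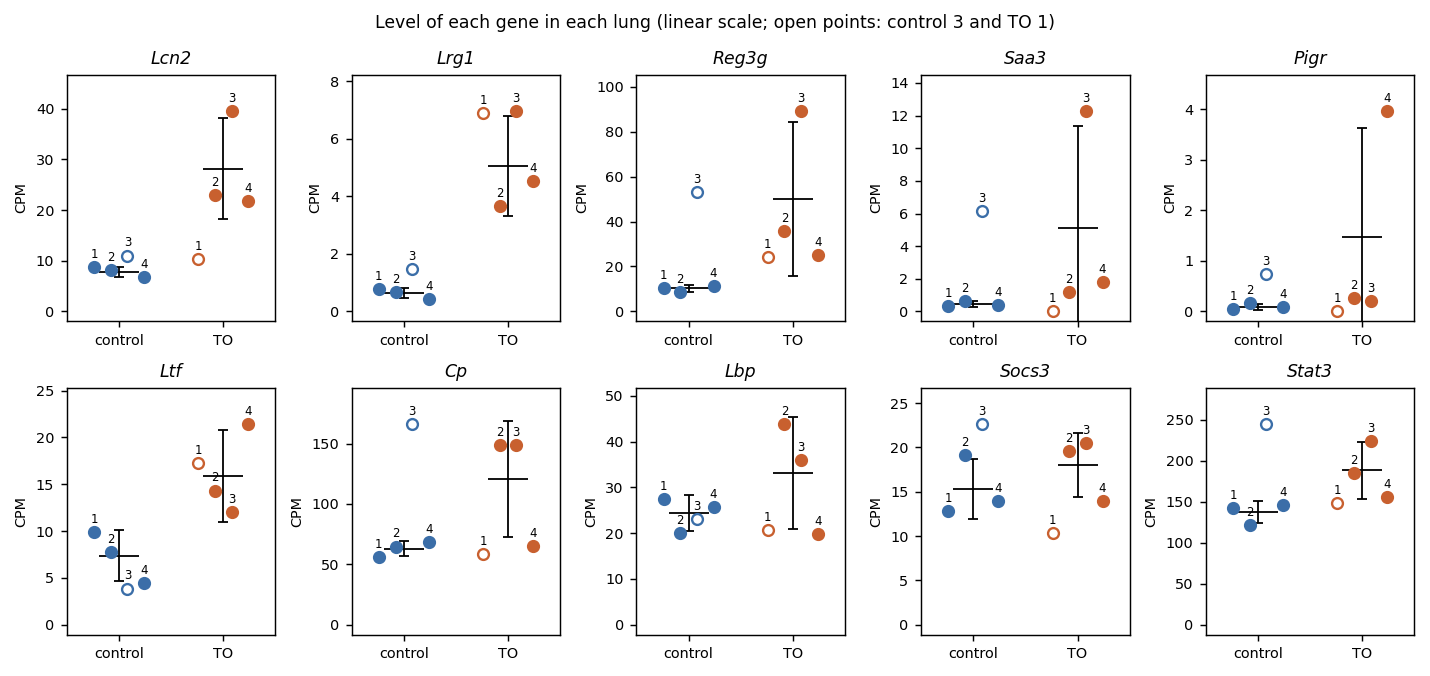
Level of each of the 10 genes in each lung, in CPM on linear axes, with control lungs on the left and TO lungs on the right of each panel and the lung number over each point. Black bars are the mean ± SD of the 6 lungs with filled points, and open points are control 3 and TO 1. TO 2, 3 and 4 lie above all controls for Lcn2, Lrg1 and Ltf, and control 3 stands high for Reg3g, Saa3, Cp, Socs3 and Stat3.

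Ltf, Pigr, Cp and Lbp encode secreted or epithelial proteins and were not picked by their values in TO. Ltf (chr9:111019271-111042767, plus strand) encodes lactoferrin, an iron-binding protein of secretions and of neutrophil granules. It was at 9.90, 7.73, 3.87 and 4.48 CPM in controls 1 to 4 and at 17.2, 14.3, 12.0 and 21.4 CPM in TO 1 to 4. The TO lungs lay above the control lungs without overlap in all 8 lungs, with TO 1 resting on 5 read pairs. The log2 fold change was 1.12 ± 0.32 with an adjusted p of 0.907 in the 6 lungs, and 1.31 ± 0.33 with an unadjusted p of 0.00214 and an adjusted p of 0.99999 in all 8.

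Pigr (chr1:130826684-130852249, plus strand) encodes the receptor that carries polymeric immunoglobulin across epithelium into secretions. Its counts were near the detection limit, with 1, 5, 22 and 2 read pairs in controls 1 to 4 and 0, 9, 5 and 140 in TO 1 to 4. It passed the filter through TO 2, 3 and 4 and control 2. In CPM, TO 4 was at 3.97, and the other lungs were between 0 and 0.739, the highest of them control 3. For Pigr the log2 fold change of 3.87 ± 1.28 (adjusted p = 0.907) was 1.22 without TO 4.

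Cp (chr3:19957054-20009145, plus strand) encodes ceruloplasmin, a copper-carrying ferroxidase. Its level was 55.9, 64.7, 166 and 68.5 CPM in controls 1 to 4 and 58.5, 148, 149 and 65.4 CPM in TO 1 to 4. The high lungs were control 3, TO 2 and TO 3, and TO 4 lay among the other controls. Cp had a log2 fold change of 0.93 ± 0.27 (edgeR adjusted p = 0.907, DESeq2 adjusted p = 0.0983) in the 6 lungs and 0.31 ± 0.38 in all 8, and without TO 4 the edgeR adjusted p was 0.0210. Exons of Cp overlap exons of Hps3 on the other strand over 108 bases, and counts were made without regard to strand.

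Lbp (chr2:158306493-158332852, plus strand) encodes the protein that hands bacterial lipopolysaccharide to Cd14. It was at 27.4, 19.98, 23.1 and 25.7 CPM in controls 1 to 4 and at 20.7, 43.9, 35.9 and 19.9 CPM in TO 1 to 4. TO 2 and TO 3 were above all controls, and TO 4 was level with the lowest control. Its log2 fold change of 0.44 ± 0.27 (adjusted p = 0.907) did not pass the test, and it was 0.19 without TO 2 and 0.71 without TO 4.

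The signalling genes Stat3 and Socs3 are taken last. Stat3 (chr11:100885098-100939540, minus strand) was at 143, 122, 245 and 146.5 CPM in controls 1 to 4 and at 148, 185, 224 and 155 CPM in TO 1 to 4. TO 2, 3 and 4 were above controls 1, 2 and 4, and control 3 was above every TO lung. Its log2 fold change was 0.45 ± 0.14 (adjusted p = 0.907) in the 6 lungs and 0.14 ± 0.22 in all 8. Exons of Stat3 and of Stat5a on the other strand overlap over 72 bases.

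Socs3 (chr11:117966079-117970047, minus strand) was at 12.8, 19.1, 22.7 and 14.0 CPM in controls 1 to 4 and at 10.3, 19.7, 20.5 and 13.9 CPM in TO 1 to 4. The groups overlapped over nearly their whole range. The log2 fold change was 0.23 ± 0.22 (adjusted p = 0.931) in the 6 lungs and 0.014 ± 0.24 in all 8, with 0.12 without control 1 and 0.43 without control 2, and it turned negative in some fits with a blocking term. These are transcript levels, and activation of Stat3 by phosphorylation was not measured.

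**Figure D2:**
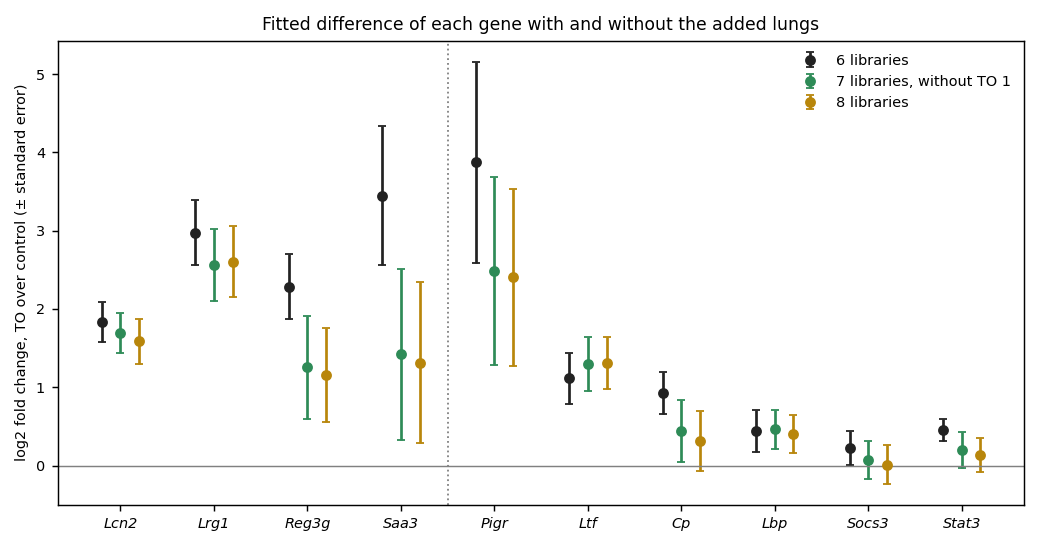
Log2 fold change of each gene, TO over control, with its standard error from edgeR's fit in the 6 lungs, in 7 lungs without TO 1 and in all 8. The genes left of the dotted line were picked as higher in TO, and Reg3g, Saa3, Pigr, Cp and Stat3 show smaller fold changes once control 3 is included, while Ltf moves from 1.12 to 1.31.

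Without overlap between the groups were 7 of the 10 genes in the 6 lungs, all with TO above control, namely Lcn2, Lrg1, Reg3g, Saa3, Pigr, Ltf and Stat3. Over all genes tested 5.09% met that condition. With control 3 added, so that 3 TO lungs faced 4 controls, 3 of the 10 met it, Lcn2, Lrg1 and Ltf, against 2.25% of all genes. Of the 6 genes that were not picked by their values, 3 met it in the first case and 1, Ltf, in the second. Among those 3, Pigr met it by 0.206 CPM in TO 3 against 0.162 CPM in control 2, each from 5 read pairs. At an unadjusted p under 0.05, 8 of the 10 genes in the 6 lungs became 3 in the 7 lungs and 3 in all 8. Over all genes, 671 of 21859, 285 of 22539 and 323 of 22545 were higher in TO at that p. Of the 6 genes not picked, 4 met it in the 6 lungs and 1, Ltf, in the 7 lungs and in all 8. The median log2 fold change of the 10 went from 1.48 to 1.28 and 1.23, and that of the 6 not picked from 0.69 to 0.45 and 0.36.

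Ranking the 7 deeply sequenced lungs separated the genes further. TO 3 was first for Lcn2, Lrg1, Reg3g and Saa3, and control 3 was first or second for Reg3g, Saa3, Pigr, Cp, Socs3 and Stat3. For Lcn2 and Lrg1 control 3 ranked just below the TO lungs and for Ltf it was the lowest of the 7. The same lung, control 3, was thus high for one set of these genes and low for Ltf. Control 3 and TO 3 also share the last 4 digits of their specimen names, as do control 2 and TO 2, and as do control 1, control 4, TO 1 and TO 4. What these digits stand for is not given in the sources used here.

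Within lungs that share these digits, Lcn2 was higher in TO by 1.496 on the log2 scale in TO 2 over control 2, by 1.84 in TO 3 over control 3, by 1.68 in TO 4 over control 4 and by 1.32 in TO 4 over control 1. For Lrg1 the same differences were 2.29, 2.18, 3.14 and 2.41, and for Ltf they were 0.88, 1.62, 2.24 and 1.11. All of these are positive, and so are those of Reg3g (2.05, 0.75, 1.12 and 1.23) and Saa3 (0.83, 0.99, 1.97 and 2.30). Cp was higher by 1.20 in TO 2 over control 2 and differed by -0.16 in TO 3 over control 3 and by -0.067 in TO 4 over control 4. Stat3 differed by 0.61, -0.13 and 0.084 in these 3 comparisons. Of the 6 genes that were not picked by their values, 6, 2 and 3 were higher in TO in the pairs numbered 2, 3 and 4 and 5 in TO 4 over control 1, while 47.7% to 51.6% of all genes were. TO 1 was left out of these ratios for its depth. Over control 1 it was higher for 6 of the 10 genes and for 29.8% of all genes, with Saa3, at 0 read pairs, at -2.29.

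**Figure D3:**
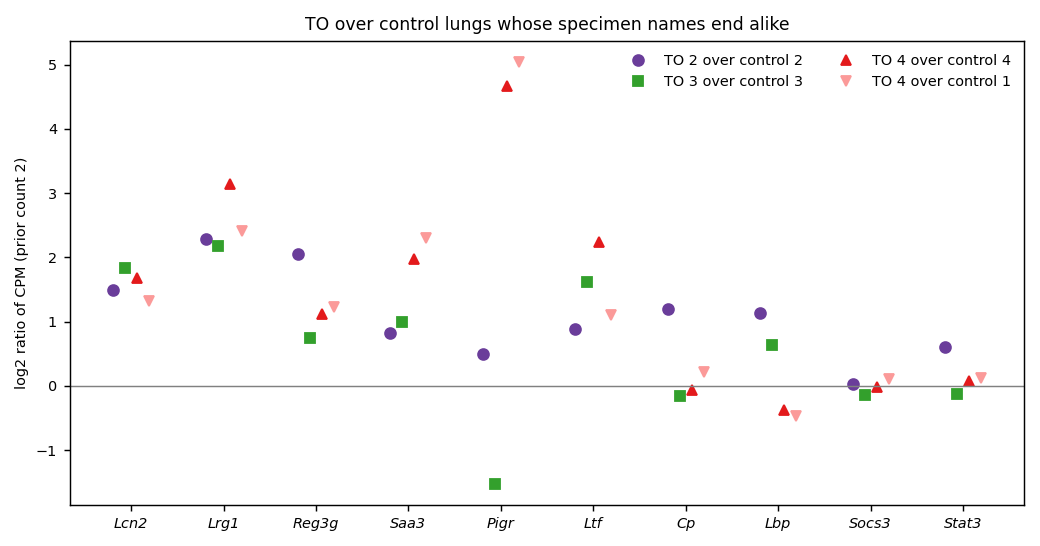
Log2 ratio of CPM, with a prior count of 2, for TO lungs over the control lungs whose specimen names end in the same digits, 1 point per pair and gene, without TO 1. Lcn2, Lrg1, Reg3g, Saa3 and Ltf lie above 0 in all 4 pairs, whereas Pigr spans -1.52 to 5.04 and Cp, Lbp, Socs3 and Stat3 fall on both sides of 0.

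Per length, as RPKM (CPM divided by kilobases of exon, mean of controls 1, 2 and 4), the order of levels in control lungs was Stat3 (14.4), Cp (6.59), Socs3 (5.30), Lbp (5.04), Reg3g (4.84), Lcn2 (2.997), Ltf (2.14), Lrg1 (0.453), Saa3 (0.174) and Pigr (0.0238). The range of Socs3 overlapped those of Cp, Lbp and Reg3g, and Lcn2 overlapped Ltf, so their order is not resolved by these lungs. In TO 2, 3 and 4 Reg3g came first at 23.7 ± 16.3 RPKM (SD, n = 3). In TO 2 and TO 4 Stat3 (19.5 and 16.3 RPKM) was above Reg3g (17.0 and 11.8 RPKM), so the first place of Reg3g rests on TO 3 (42.3 RPKM). Control 3, left out of the order above, had 25.1 RPKM of Reg3g and 25.7 RPKM of Stat3. The range of Reg3g in TO overlapped those of Stat3, Cp and Lcn2, whose means were 19.8, 12.6 and 10.7 RPKM. Lrg1, Saa3 and Pigr kept the last 3 places in both groups.

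The 4 lists of ligands, receptors and signalling genes around these genes had medians between 0.19 and 0.27 on the log2 scale. Of 16 IL-6 family ligands and receptors 13 were tested, 10 were higher in TO and 2 of them, Il6ra and Osmr, had an unadjusted p under 0.05, with a list median log2 fold change of 0.20. Il6 itself had too few reads to be tested, at 0 to 0.303 CPM. Osmr, the oncostatin M receptor, had a log2 fold change of 0.83 ± 0.31, and Il22ra1, the epithelial receptor for IL-22, one of 0.74 ± 0.53 at about 1 CPM. The shared chain Il6st (0.21 ± 0.12) and Lifr (0.20 ± 0.11) were the most abundant. With all 8 lungs the list median was 0.051.

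In the list of 16 Jak/Stat3 signalling and feedback genes, 12 were higher, 2 (Pim1 and Cebpd) had an unadjusted p under 0.05, and the median was 0.22. Cebpd, the C/EBP factor known from the acute-phase response, was at 54.5, 62.8, 158 and 63.3 CPM in controls 1 to 4 and 48.2, 111, 149 and 70.0 CPM in TO 1 to 4. The lungs stood in nearly the order they took for Cp, with control 3, TO 3 and TO 2 high, and the log2 fold change was 0.86 ± 0.23 in the 6 lungs (DESeq2 adjusted p = 0.0688, edgeR adjusted p = 0.907) and 0.24 in all 8. Jak1 (0.16 ± 0.12) and Ptpn11 (0.10 ± 0.13) were the most abundant, with adjusted p of 0.910 and 0.959.

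Of 20 genes of the NF-kB and IL-1/IL-17/TNF axis 19 were tested, 13 were higher, 4 of them at an unadjusted p under 0.05, and the median was 0.19. The NF-kB feedback genes Tnfaip3 (0.81 ± 0.30) and Birc3 (0.71 ± 0.27) had the largest differences among genes over 1 CPM, while Nfkb1 (0.18 ± 0.12) and Tnfrsf1a (-0.011 ± 0.11) were the most abundant. Of 10 lipopolysaccharide sensing genes 9 were tested, 7 were higher and 3 of them, Cd14, Tlr4 and Tlr2, had an unadjusted p under 0.05. Tlr4, the lipopolysaccharide receptor, had a log2 fold change of 0.82 ± 0.23 and Tlr2, the lipopeptide receptor, one of 0.66 ± 0.21. Myd88 (0.27 ± 0.17) and Irak1 (-0.014 ± 0.11), which act downstream, were the most abundant, and the list median was 0.27.

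Other acute-phase proteins were divided. Of 24 genes 18 were tested, 11 were higher and 7 lower, 4 of the higher (Serpina3n, C3, C4b and Steap4) at an unadjusted p under 0.05. The list median of 0.38 became -0.34 without TO 4 and 1.58 without control 1. Hepatocyte markers had their highest sums in these lungs, 394 and 910 CPM. Of the lower genes, Fga, Fgb, Fgg, Itih3, Itih4 and Apcs were highest in control 1. Fgb, itself a hepatocyte marker, reached 33.6 CPM there, 14.7 in TO 4 and 6.89 in TO 1 (2 read pairs), against 0 to 1.25 elsewhere. Whether liver transcripts set the lower part of this list was not tested. C4b, complement component 4B, was at 0.682 to 3.91 CPM in the 4 controls and at 3.44, 2.20, 27.5 and 8.80 CPM in TO 1 to 4, so the groups overlapped (log2 fold change 2.59 ± 0.87). Orm1 (2.67 ± 1.39) was at 2.41 CPM in TO 4 and at 0 to 0.350 CPM in the other lungs but TO 1, and the abundant Hp (0.46 ± 0.26) and Mt1 (0.31 ± 0.36) overlapped between the groups.

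Of 23 other epithelial defence genes 17 were tested, 14 were higher, 7 of them at an unadjusted p under 0.05, and Wfdc2 was the 1 gene lower at that p, with a median of 0.73. Muc5b, a gel-forming airway mucin, was at 10.4, 5.65, 78.0 and 18.8 CPM in controls 1 to 4 and at 68.9, 39.4, 139 and 20.4 CPM in TO 1 to 4, so that control 3 was high here too (log2 fold change 2.50 ± 0.68 in the 6 lungs and 1.24 in all 8). The Muc5b value of TO 1 rests on 20 read pairs. Bpifa1, a secreted protein of the upper airway, was listed at 0 in 3 of the 4 controls, and control 4 had 3 read pairs. It was at 1.42, 1.16 and 0.199 CPM in TO 2, 3 and 4, from 49, 28 and 7 read pairs. Its 6.89 CPM in TO 1 rests on 2 read pairs. S100a8, a calprotectin subunit carried by neutrophils, was at 4.44 to 9.33 CPM in controls and 10.999 to 41.6 CPM in TO lungs (1.82 ± 0.46, DESeq2 adjusted p = 0.00818, edgeR adjusted p = 0.907). S100a9, the other subunit, overlapped, at 6.38 to 14.9 CPM in controls and 12.2 to 61.6 CPM in TO lungs. Its log2 fold change was 1.76 ± 0.53, with an adjusted p of 0.519 by DESeq2 and 0.907 by edgeR. Sftpa1 (0.53 ± 0.26) and Muc1 (-0.046 ± 0.21) were the most abundant. Of 13 mucosal immunoglobulin and iron handling genes 11 were tested, 8 were higher and 0 had an unadjusted p under 0.05, with Trf, the iron carrier transferrin, at 0.30 ± 0.25, Fth1 at 0.091 ± 0.11, Hmox1 at 0.50 ± 0.24, Ighm at 0.50 ± 0.41 and a list median of 0.22.

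**Figure D4:**
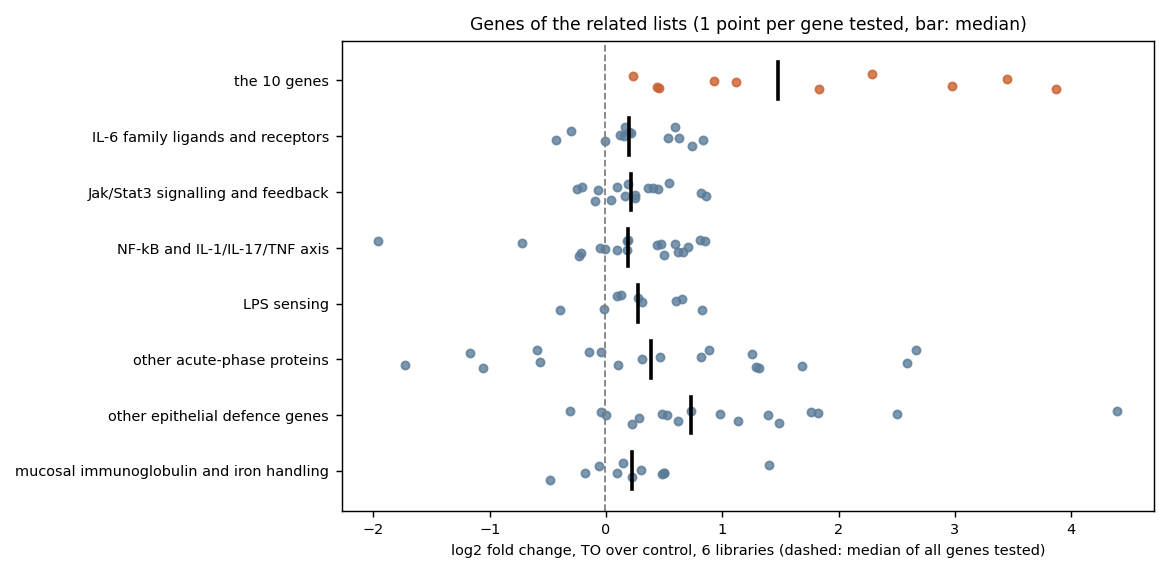
Log2 fold change, TO over control in the 6 lungs, of every tested gene of each list, with the list median as a bar and the median of all genes tested as a dashed line. The 10 genes of the first row, of which 4 were picked for a high value, have a median of 1.48. The 6 that were not picked have a median of 0.69, within the medians of the other lists, which lie between 0.19 and 0.73.

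The genes most like each picked gene were found by Pearson's r of log2 CPM over the 7 lungs other than TO 1, among 15882 genes, as a description over lungs that share their libraries and depth. For Lcn2 the closest gene was Lrg1 (r = 0.985), then Fgr (0.955), a Src-family kinase of myeloid cells, and Rhbdl3 (0.955). For Lrg1 they were Lcn2, Fgr (0.971) and BC023105 (0.962). For Reg3g they were Tpd52 (0.978), Pex7 (0.976) and Dnaja4 (0.976), and for Saa3 the interferon-stimulated gene Ifit3 (0.985), Trmt13 (0.983) and Apoe (0.982). Fgr was at 1.88 to 2.82 CPM in controls and 3.75 to 4.38 CPM in TO lungs, without overlap, whereas Ifit3 reached 14.3 CPM among controls against 2.20 to 39.2 CPM in TO. The lists for Lcn2 and Lrg1 held Fgr in common, and those for Reg3g and Saa3 held no gene in common with them. The difference between control and TO was not removed before r was computed. Lcn2 and Lrg1 were both picked as higher in TO, so their r includes that difference. Tpd52 reached its r at 62.7 to 73.0 CPM in controls and 66.0 to 77.9 CPM in TO lungs. The r that the first 3 of 15882 genes reach by chance over 7 lungs was not computed, so nothing is read from these lists.

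Markers of other cell types were set beside these values. Of the 14 neutrophil markers 10 were tested and 8 were higher in TO, and their summed level was 22.9 to 51.9 CPM in controls 1, 2 and 4 and 50.9 to 162 CPM in TO 2, 3 and 4. Ly6g was at 0 in every lung, and Mpo, Elane, Ctsg and Fcnb were at 0 in some. Lower in TO were Prtn3 (log2 fold change -1.18 ± 0.64) and Fcnb (-0.13 ± 1.19). Prtn3 was at 0.812 to 1.05 CPM in controls 1, 2 and 4 and at 0.284 to 0.495 CPM in TO 2, 3 and 4. Mpo, not tested, had 29, 0 and 5 read pairs in those controls and 0, 0 and 3 in those TO lungs. Elane, not tested, had 25, 0 and 6 against 0, 3 and 0. TO 2, with a neutrophil sum of 50.9 CPM, and control 1, with 51.9 CPM, were at 23.0 and 8.72 CPM for Lcn2, 3.65 and 0.788 CPM for Lrg1 and 14.3 and 9.90 CPM for Ltf. Single markers differed: Csf3r was at 3.23 to 4.42 CPM in controls 1, 2 and 4 and at 8.28 to 8.94 CPM in TO 2, 3 and 4, Mmp8 at 2.10 to 2.80 and 5.96 to 15.8 CPM, and the granule gene Ngp at 3.23 to 10.5 and 7.64 to 18.6 CPM, overlapping. Csf3r, Mmp8 and Cxcr2 were higher in TO 2 than in control 1 although the sums were alike. The part of neutrophils in the differences of Lcn2, Lrg1 and Ltf was not tested beyond these values.

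Of the 10 macrophage and monocyte markers 10 were higher in TO, with sums of 271 to 345 CPM in controls 1, 2 and 4, 417 CPM in control 3 and 383 to 562 CPM in TO 2, 3 and 4. The 7 airway secretory markers summed to 721 to 1127 CPM in the controls and to 1954, 1426 and 870 CPM in TO 2, 3 and 4, so TO 4 lay within the controls on this measure. Reg3g and Muc5b of TO 4, at 25.0 and 20.4 CPM, were above those of controls 1, 2 and 4 and below those of control 3 (53.0 and 78.0 CPM). For Muc5b, itself 1 of the 7 markers, control 4 was close, at 18.8 CPM. Fetal lung epithelium markers summed to 10206 to 16725 CPM in controls 1, 2 and 4 and to 9274 to 19251 CPM in TO 2, 3 and 4, overlapping. Hepatocyte markers were high in control 1 (910 CPM) and TO 4 (394 CPM) against 3.35 to 96.4 CPM elsewhere, and stratified epithelium markers in control 1 (282 CPM), TO 1 (368 CPM) and TO 4 (271 CPM) against 3.26 to 7.87 CPM. Control 1 had 1 read pair of Pigr and the lowest Cp of the 8 lungs, whereas TO 4 had 140 read pairs of Pigr, the most of the 8, and 65.4 CPM of Cp. Mesothelium markers (5 of 5 tested were higher) and erythroid markers (4 of 6) overlapped between the groups. The part of these cell types in the values above was not tested.

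**Figure D5:**
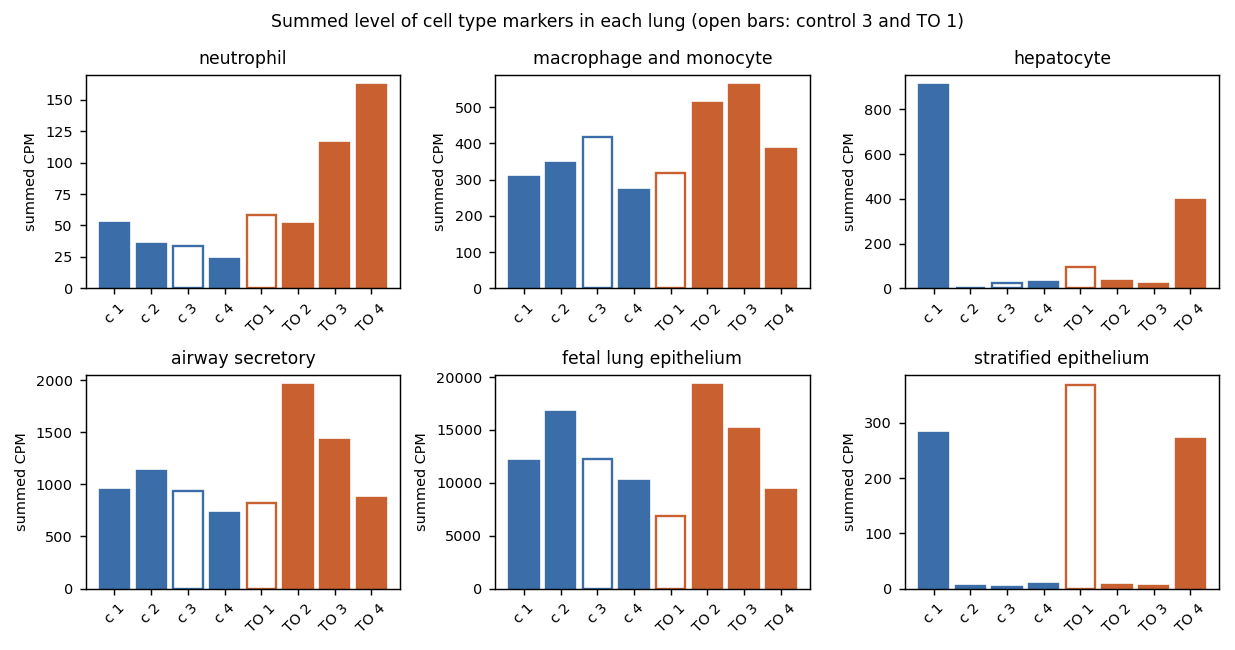
Summed CPM of the markers of 6 cell types in each lung, with bars starting at 0, controls (c) in blue and TO in orange and open bars for control 3 and TO 1. Neutrophil sums are 22.9 to 51.9 CPM in controls and 50.9 to 162 CPM in TO lungs, and hepatocyte and stratified epithelium sums stand out in single lungs of both groups.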

How the data were processed

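RNA of 8 whole fetal mouse lungs was sequenced as read pairs. The authors aligned them with STAR to GRCm38 (mm10 in the submitters' processing notes, which also list DESeq2) and deposited, for each gene, the raw counts of its read pairs. The version and annotation are not given in the sources used here. Of 55385 gene IDs, 54487 were identical to GENCODE M21, which gave symbols and coordinates. Read pairs on several places (3.76% to 4.28%), no gene (9.64% to 14.9%) or more than 1 gene (5.00% to 5.74%) stayed out of totals. Reads carry no molecular identifiers, so detection limits cover counting error only.

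The 10 genes and all lists were chosen with earlier results of these data known. Genes with at least 5 reads in 3 libraries were fitted with edgeR 4.0.16 (R 4.3.3, TMM, quasi-likelihood test, Benjamini-Hochberg adjustment over all genes, threshold 0.1). CPM used TMM factors of all 8 libraries, and log2 CPM a prior count of 2. Alternatives were DESeq2 1.42.0, limma-voom 3.58.1, other filters, scalings, strands and libraries, and blocks. The fits were tested on simulated data, with 200 of 21859 genes changed by 2 on the log2 scale in the 6 libraries. There edgeR recovered 185 of the 200 and also called 25 unchanged genes. DESeq2 recovered 186 and called 71 unchanged genes, so its calls are less strict than the threshold of 0.1 states. From each list were named the 2 most abundant genes, the 2 with the largest change at 1 CPM or more, and any called, of which 1 is not reported here. Genes named beyond these, at an unadjusted p under 0.05 or as markers, and Il6, were chosen after their values were seen. Promoters are RefSeq's.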

Additional observations from a re-analysis of the deposited data

Results flagged for a closer look

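A lung was set apart where its gap to the nearest other lung of its group exceeded Dixon's critical share of the group's range. Of 20 groups (10 genes, control and TO) 6 held such a lung, where chance gives about 1 in 20 for independent groups. These groups hold the same lungs and genes that vary together, so they are not independent and nothing is read from that comparison. Control 3 stood above the other controls for Reg3g, at 53.0 CPM against 8.61 to 11.5, for Saa3, at 6.15 against 0.307 to 0.650, for Cp, at 166 against 55.9 to 68.5, and for Pigr, at 0.739 against 0.0438 to 0.162. Among TO lungs, Saa3 was at 12.3 CPM in TO 3 against 0 to 1.82, and Pigr at 3.97 CPM in TO 4 against 0 to 0.260. The 0 in both ranges is TO 1, where 0 read pairs allow up to 10.3 CPM. That is above the 3.97 CPM of Pigr and near the 12.3 CPM of Saa3, so nothing is read from either TO flag. The 3 Pigr and Saa3 values of 0.739, 6.15 and 12.3 CPM rest on 22, 183 and 298 read pairs.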

How the results depend on the processing

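All 10 genes had a positive fold change in each alternative in which they were tested, except Socs3, which was -0.058 with a replicate block over 8 libraries and -0.030 with a block by specimen digits over 8. The 0 genes called by edgeR in the 6 libraries became 44 with DESeq2, 40 with every gene that had a read, 219 and 3 with a replicate block over 6 and 8 libraries, 7 with DESeq2 over all 8 libraries (an alternative chosen after seeing the data) and 0 to 144 with 1 lung left out, the most without TO 4 (52 without control 4). Of the 10 genes the same settings called 5 (DESeq2), 5 (every gene with a read), 4 and 1 (replicate block), 2 (DESeq2 over 8) and 0 to 4 (1 lung left out, the most without TO 4). Among the genes not picked on this contrast, Cp was called with DESeq2, with every gene that had a read and without TO 4. Ltf was called with the replicate block over 6 libraries. All other calls are of picked genes, so nothing is read from them. The replicate block over 6 libraries rests on the numbers 2 and 4, the only ones found in both groups there. Genes at an unadjusted p under 0.05, 1123, became 530 in 8 libraries, 451 in 7, 1889 with every gene that had a read, 367 with DESeq2 over 8 and 587 (without control 1) to 2217 (without TO 4) with 1 lung left out. The median log2 fold change of the 10, 1.48, was 1.23 in 8 libraries, 1.21 with the replicate block over 8, 1.14 with DESeq2 over 8 and 1.23 to 1.65 with 1 lung left out. Pigr was not tested where every library needed 5 reads or on the first strand alone, and the median of the other 9 genes was 1.13 and 0.91 there, against 1.12 for those 9 in the 6 libraries. With 1 lung left out the list medians ran from 0.15 to 0.32 (IL-6 family), 0.13 to 0.30 (Jak/Stat3), 0.18 to 0.40 (NF-kB axis), 0.17 to 0.36 (lipopolysaccharide sensing), -0.34 to 1.58 (acute-phase), 0.42 to 0.99 (epithelial defence) and 0.11 to 0.33 (mucosal). The cause of these changes was not tested.

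Same-numbered lungs deviated together with r of 0.052, 0.13, 0.16 and 0.071, not all over 0.1, so the numbers were not taken to pair the lungs. In all 8 lungs, controls 2, 3 and 4 correlated best with the TO lung of their own number and control 1 with TO 4. Without TO 1, and with only genes at a mean of 1 CPM or more, the r of pairs 2, 3 and 4 were 0.30, 0.37 and 0.28. The effects of leaving out TO 1 and of leaving out low genes were not separated. With the replicate block over 6 libraries, the adjusted p was 0.00432 for Ltf, which was 0.288 with that block over 8 libraries and 0.637 and 0.432 with the block by specimen digits over 6 and 8, and at least 0.340 for Pigr, Cp, Lbp, Socs3 and Stat3. In the 6 libraries only the numbers 2 and 4 occur in both groups. Control 1 and TO 3 are alone in their blocks there, so that fit compares TO 2 and TO 4 with controls 2 and 4 only. Cp had an adjusted p of 0.0762 with every gene that had a read. TO 1 cannot show genes under 10.3 CPM. With 3 lungs against 3, single outlying lungs set the values of Saa3 and Pigr.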
